A study of Homo sapiens with 15 samples.

Results

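The genes described here are 10 heat shock and chaperone genes: the small heat shock proteins CRYAB, HSPB1 and HSPB8, the HSP70 family genes HSPA8, HSPA1A and HSPA1B, the HSP110 gene HSPH1, the co-chaperone genes DNAJB1 and BAG3, and the HSP90 gene HSP90AA1. They were taken by symbol from a fixed list of names, and all 10 were found among 60664 gene IDs and passed the filter on low counts. CRYAB was taken to be chosen by a measured value, its fall on erdafitinib alone. Its values in that comparison are therefore given as a description with no test. The other 9 were taken as listed by name, as partners of the same protein folding system. Whether measured values also chose them, or CRYAB in other comparisons, is not stated. No test of the 10 is therefore known to be free of selection.

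RNA was sequenced from T47D, an established luminal breast cancer line that carries the oestrogen receptor, and from a T47D derivative resistant to tamoxifen. The 5 groups held 3 libraries each, 15 in all. PAR vehicle was the parental line on 0.05% DMSO. TR vehicle, TR 4-OHT, TR erdafitinib and TR combination were the resistant line on 0.05% DMSO, on 1 µM 4-hydroxytamoxifen (4-OHT, the active metabolite of tamoxifen), on 5 µM erdafitinib (which blocks the kinases of the FGF receptors, FGFR1 to FGFR4) or on both drugs. All groups were allowed 24 h to attach, kept for 48 h in 2% charcoal-stripped serum with 8 µg/mL insulin, and treated for 120 h. Before that, parental cells had been grown in 5% serum and resistant cells in 2% charcoal-stripped serum with 1 µM 4-OHT, so resistance and culture history cannot be told apart in a comparison of the lines. The labels do not say whether the resistant line is 1 clone, and they name the 3 libraries of each group biological replicates with no further detail. The p-values therefore reflect the spread among these libraries alone, and that spread may be technical.

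Heat shock proteins keep other proteins folded. Small heat shock proteins such as αB-crystallin, the product of CRYAB, form large assemblies that hold unfolded proteins without using ATP. HSP70 proteins refold those clients in ATP-driven cycles with J-domain partners such as DNAJB1 and nucleotide exchange factors such as HSPH1 and the BAG proteins, and HSP90 takes over late folding steps of kinases and steroid receptors, the oestrogen receptor among them. BAG3 links HSPB8 and HSP70 to the removal of damaged proteins by autophagy. Many of these genes are induced by the transcription factor HSF1, which binds heat shock elements, arrays of the unit nGAAn in alternating orientation. αB-crystallin is best known from lens and muscle, and in breast it is found in basal and myoepithelial cells.

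Promoters are shown for 4 of the 5 members that hold the heat shock elements described next, and that of HSPB1 is not shown. The promoter of HSPH1 is shown because its levels ran closest to those of HSPA8. The sequences come from RefSeq (GRCh38.p14) and run 5′ to 3′ from 250 bases before to 50 bases after a start of the gene. Matches to a heat shock element are in capitals. RefSeq windows were found for 9 of the 10 members.
HSPA8, chr11:123062087-123062386, minus strand: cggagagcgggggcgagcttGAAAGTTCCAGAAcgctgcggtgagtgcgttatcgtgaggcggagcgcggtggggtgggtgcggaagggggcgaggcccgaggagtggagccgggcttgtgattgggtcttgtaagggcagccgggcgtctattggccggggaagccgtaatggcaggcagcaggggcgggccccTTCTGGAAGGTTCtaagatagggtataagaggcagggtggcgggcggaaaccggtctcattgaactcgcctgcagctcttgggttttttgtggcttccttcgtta
HSPB8, chr12:119178681-119178980, plus strand: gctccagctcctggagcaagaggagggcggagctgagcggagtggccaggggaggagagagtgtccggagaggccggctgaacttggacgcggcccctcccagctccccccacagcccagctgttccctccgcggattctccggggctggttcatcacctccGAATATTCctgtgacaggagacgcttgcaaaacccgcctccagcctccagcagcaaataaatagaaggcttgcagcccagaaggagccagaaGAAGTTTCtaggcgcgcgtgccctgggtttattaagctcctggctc
HSPA1A, chr6:31815293-31815592, plus strand: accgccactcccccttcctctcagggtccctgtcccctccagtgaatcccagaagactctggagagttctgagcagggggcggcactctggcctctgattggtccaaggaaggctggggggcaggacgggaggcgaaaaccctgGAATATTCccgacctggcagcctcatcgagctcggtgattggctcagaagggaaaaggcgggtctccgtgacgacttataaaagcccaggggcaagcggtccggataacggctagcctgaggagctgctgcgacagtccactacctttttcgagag
HSPA1B, chr6:31827488-31827787, plus strand: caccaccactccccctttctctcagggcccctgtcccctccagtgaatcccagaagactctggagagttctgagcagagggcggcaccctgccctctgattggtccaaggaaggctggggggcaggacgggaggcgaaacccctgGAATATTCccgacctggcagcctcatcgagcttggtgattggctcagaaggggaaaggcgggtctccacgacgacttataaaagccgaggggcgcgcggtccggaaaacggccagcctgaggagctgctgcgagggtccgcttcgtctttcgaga
HSPH1, chr13:31162339-31162638, minus strand: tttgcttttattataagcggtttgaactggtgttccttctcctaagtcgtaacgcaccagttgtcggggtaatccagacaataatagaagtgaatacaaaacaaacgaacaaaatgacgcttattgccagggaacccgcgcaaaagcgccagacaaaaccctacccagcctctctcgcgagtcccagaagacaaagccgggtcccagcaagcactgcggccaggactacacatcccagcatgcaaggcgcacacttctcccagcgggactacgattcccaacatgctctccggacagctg
An element of 3 units (GAANNTTCNNGAA or TTCNNGAANNTTC, which are each other's reverse complement) was present in 172 of 35116 promoter windows (0.49%). Among the members it was present in HSPA8, with its first base 230 and 55 bases before the start. The shorter forms of 2 units, GAANNTTC (6.77% of all windows) or TTCNNGAA (7.74%), were found in 5 members, HSPB1, HSPB8, HSPA1A, HSPA1B and HSPA8, and overlap the 3-unit form in HSPA8. Both strands were searched for each motif. The windows of BAG3, HSPH1, DNAJB1 and HSP90AA1 held none of these letters. A single window per gene was searched. An element near another start of the same gene, of DNAJB1 or HSP90AA1 among them, would be missed. The oestrogen response element GGTCANNNTGACC was in 0.057% of windows and in none of the members' windows. A match is a description of the sequence and does not show that a factor binds there. The windows of HSPA1A and HSPA1B aligned with 92.6% identical bases, and the transcripts of these neighbouring genes with 95.9%, including an identical run of 1715 bases. Reads from such stretches match both genes and were left out, so the split between HSPA1A and HSPA1B is uncertain.

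Depth and purity of the libraries touch all values below. Totals ranged from 6946684 to 28717380 counts (median 22304029), so 3 counts in a library equalled 0.104 to 0.432 CPM, which is the count divided by the scaled total of the library. Libraries of 1 group differed along 1 main axis that held 49.5% of the variance within groups and ran with the GC content of transcripts (Spearman 0.732; this is across genes, and genes are not independent). The luminal markers summed to 2858 to 4722 CPM over the 15 libraries, with all 10 detected in every group. Between TR vehicle and PAR vehicle 2 of the 10 rose and 2 fell at an edgeR adjusted p under 0.05, which 35.9% of all genes passed. Among those that fell was ESR1, the oestrogen receptor gene, at -1.44 (SE 0.16).

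CRYAB was the member that differed most between groups. CRYAB (ENSG00000109846, chromosome 11, 111908564 to 111923722, minus strand, 7 exon blocks) was near the detection limit in parental cells, at 1.43, 0.953 and 1.27 CPM in PAR vehicle 1 to 3, from 17, 6 and 35 counts. In resistant cells on vehicle it stood at 8.31, 22.9 and 18.4 CPM, and on 4-OHT at 20.4, 15.3 and 17.0 CPM. Every library of both groups was above every parental library, and TR vehicle 1 was low within its group. The means were 1.22 ± 0.242 CPM (SD, n = 3) in PAR vehicle, 16.5 ± 7.46 in TR vehicle and 17.5 ± 2.57 in TR 4-OHT. The selection of CRYAB was taken to use the TR vehicle libraries but not TR 4-OHT, so TR 4-OHT was also set against PAR vehicle. That log2 fold change was 3.82 (SE 0.37, 14.1-fold; edgeR quasi-likelihood test, adjusted p = 2.08e-06), and TR vehicle against PAR vehicle gave 3.73 (SE 0.36, 13.2-fold). In RNA of whole cultures, more cells with CRYAB and more RNA per cell cannot be told apart.

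On erdafitinib, CRYAB stood at 3.38, 3.78 and 2.47 CPM without 4-OHT and at 3.23, 3.00 and 2.83 CPM with it. All 6 of these libraries lay below all 6 resistant libraries without erdafitinib and above all 3 parental libraries. The share of all genes separated in this way was not computed. The fall on erdafitinib alone, the value that selected the gene, was -2.36 on the log2 scale (SE 0.33), from 16.5 ± 7.46 to 3.21 ± 0.672 CPM. The same drug on top of 4-OHT was measured in other libraries, where CRYAB fell from 17.5 ± 2.57 to 3.02 ± 0.204 CPM (SD, n = 3). That log2 fold change was -2.54 (SE 0.33, 5.81-fold lower, edgeR adjusted p = 0.00165). The 2 groups did not overlap, as in 15.7% of all genes. The level left on both drugs was 2.48 times the parental mean. Adding 4-OHT to erdafitinib gave a log2 difference of -0.09 (SE 0.32) in CRYAB, and the interaction of the drugs was -0.18 (SE 0.45). Both use libraries that selected the gene and are given with no test. In descending order of the means the groups were TR 4-OHT, TR vehicle, TR erdafitinib, TR combination and PAR vehicle. Neighbours in that order separated at TR vehicle and TR erdafitinib and at TR combination and PAR vehicle, and the other neighbours overlapped.

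**Figure D1:**
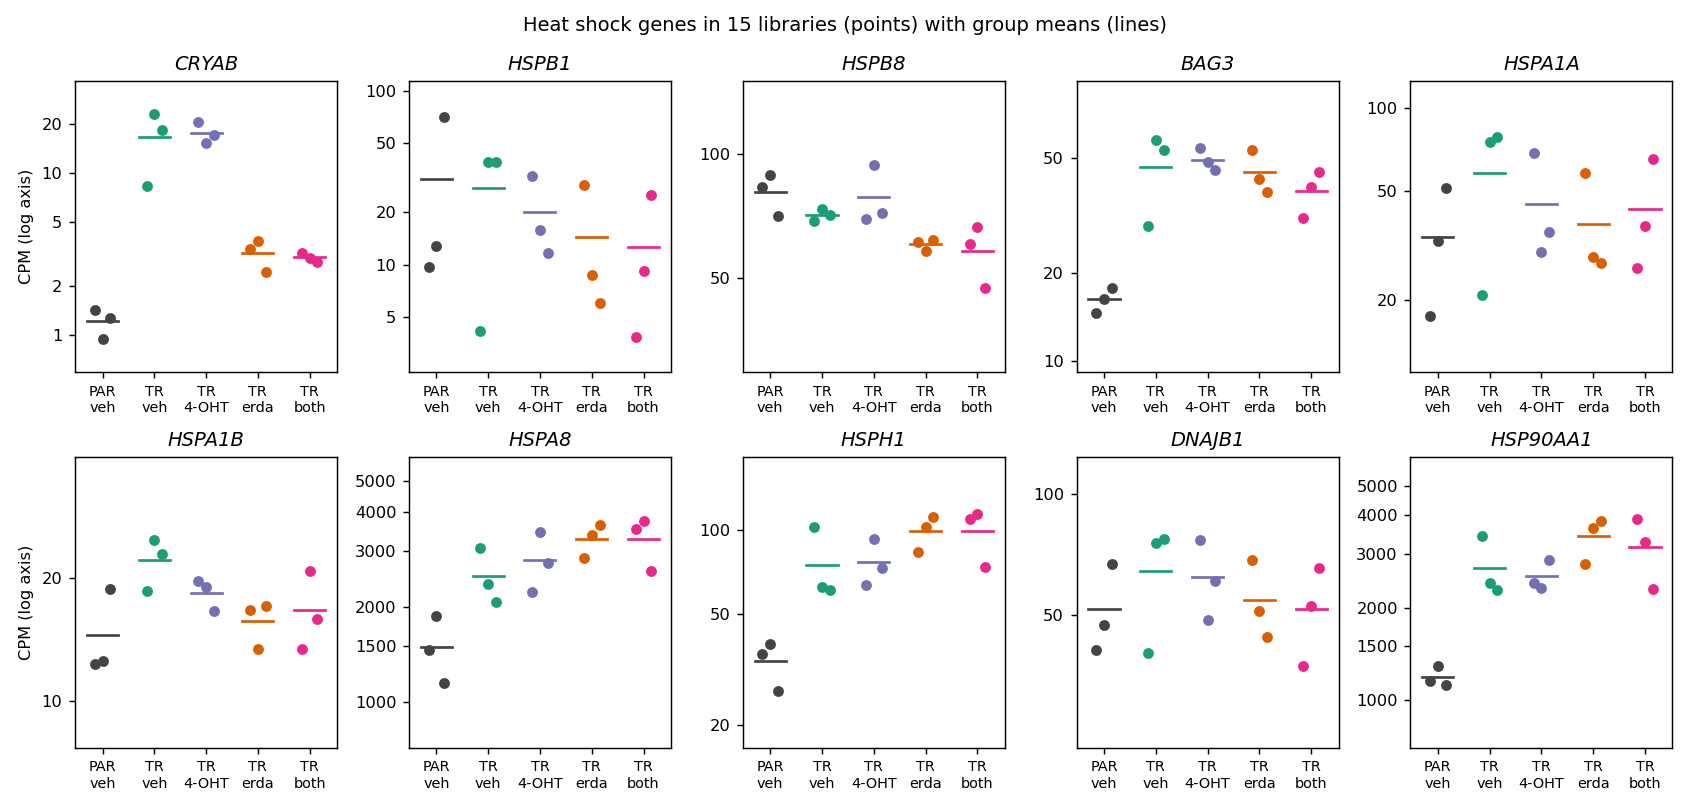
Level of each heat shock gene in CPM (log axis, its own range per panel) in the 5 groups, with a point for each of the 15 libraries and a line at the group mean of 3; "veh" is vehicle, "erda" erdafitinib and "both" the combination. CRYAB falls into 3 tiers, parental near 1, resistant on erdafitinib near 3 and the other resistant libraries from 8.31 to 22.9 CPM, while HSPB1 spreads within every group.

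HSPB1 (ENSG00000106211, chromosome 7, 76302673 to 76304295, plus strand) encodes HSP27, an oestrogen-inducible small heat shock protein in breast cells. Its levels were 9.73, 12.9 and 71.0 CPM in PAR vehicle 1 to 3, and 4.18, 39.1 and 38.9 CPM in TR vehicle. They were 32.5, 15.9 and 11.6 CPM in TR 4-OHT, 28.6, 8.69 and 6.01 CPM in TR erdafitinib, and 3.86, 9.18 and 25.1 CPM in TR combination. Each group held 1 or 2 high libraries and the groups overlapped throughout, with no order of neighbours beyond the spread. The mean was 31.2 ± 34.5 CPM (SD, n = 3) in PAR vehicle and 27.4 ± 20.1 in TR vehicle, and the log2 fold change was -0.20 (SE 0.91; edgeR adjusted p = 0.888). The SD of HSPB1 within groups was 1.38 on the log2 scale, against a median of 0.38 over all genes, and 98.4% of genes varied less. In 5 of 5 groups its highest library was the one highest on the GC axis, and its transcript has a GC content of 63.6%. The part of this axis in the spread of HSPB1 was not tested.

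HSPB8 (ENSG00000152137, chromosome 12, 119171555 to 119224855, plus strand), the small heat shock protein that works with BAG3, varied little. It stood at 83.5, 89.1 and 70.7 CPM in PAR vehicle and 68.7, 73.6 and 71.2 CPM in TR vehicle. In TR 4-OHT it stood at 69.7, 94.1 and 71.9 CPM, in TR erdafitinib at 61.3, 58.3 and 61.7 CPM, and in TR combination at 60.7, 66.5 and 47.3 CPM. All 6 resistant libraries on erdafitinib lay below all 6 without it, with means of 60.5 ± 1.84 and 58.2 ± 9.83 CPM against 71.2 ± 2.42 and 78.6 ± 13.5 CPM (SD, n = 3). The share of all genes separated 6 against 6 was not computed. Groups of 3 did not overlap in 11.6% of all genes for erdafitinib alone and in 15.7% on top of 4-OHT. The difference in HSPB8 did not pass the threshold over all genes: the log2 fold change was -0.24 (SE 0.16, edgeR adjusted p = 1) on erdafitinib alone and -0.43 (SE 0.16, adjusted p = 0.39) on top of 4-OHT. TR vehicle against PAR vehicle gave -0.19 (SE 0.16, adjusted p = 0.389), with overlapping groups.

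TR vehicle was set against PAR vehicle to place the members in the resistant state. In TR vehicle 5 of the 10 members were called higher and none lower at an adjusted p under 0.05, among 35.9% of all genes called in either direction. CRYAB is 1 of the 5, and the TR vehicle libraries took part in its selection. With TR 4-OHT in place of TR vehicle the count was again 5, among 35.3% of genes called. The groups of TR vehicle and PAR vehicle did not overlap for 5 members, against 41.0% of all genes. The median log2 fold change of the members was 0.76, beside 0.07 over all genes. Apart from CRYAB, the called members were the co-chaperone BAG3, the disaggregase partner HSPH1, HSP90AA1 and the constitutive HSP70 gene HSPA8.

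BAG3 (ENSG00000151929, chromosome 10, 119651380 to 119677819, plus strand) stood at 14.7, 16.4 and 17.8 CPM in PAR vehicle and 29.1, 57.2 and 53.2 CPM in TR vehicle. The lowest resistant library was above the highest parental one. Its mean rose from 16.3 ± 1.57 to 46.5 ± 15.2 CPM (SD, n = 3), a log2 fold change of 1.51 (SE 0.24; edgeR adjusted p = 0.000211). It was 49.2 ± 4.4 CPM in TR 4-OHT, 44.5 ± 7.88 in TR erdafitinib and 38.4 ± 6.83 in TR combination.

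HSPH1 (ENSG00000120694, chromosome 13, 31134973 to 31162388, minus strand), which encodes HSP105, a nucleotide exchange factor of HSP70, stood at 36.0, 39.1 and 26.6 CPM in PAR vehicle and 102, 62.2 and 60.9 CPM in TR vehicle. The groups did not overlap, and the log2 fold change was 1.15 (SE 0.25; edgeR adjusted p = 0.0022). HSP90AA1 (ENSG00000080824, chromosome 14, 102080742 to 102139699, minus strand), the inducible cytosolic HSP90, stood at 1155, 1289.6 and 1117 CPM in PAR vehicle and 3415, 2403 and 2278 CPM in TR vehicle. Its groups did not overlap either, and it rose by 1.19 (SE 0.22; edgeR adjusted p = 0.000743). In both genes TR vehicle 1 was the highest of its group, the library in which CRYAB, BAG3 and HSPB1 were lowest.

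HSPA8 (ENSG00000109971, chromosome 11, 123057489 to 123063230, minus strand) encodes HSC70, the HSP70 made in unstressed cells. It stood at 1462, 1870.0 and 1142 CPM in PAR vehicle and 3067, 2371 and 2067 CPM in TR vehicle, and the groups did not overlap. The log2 fold change was 0.75 (SE 0.23; edgeR adjusted p = 0.0217). This call did not hold in a fit of the 2 groups alone (0.72, adjusted p = 0.0899), without PAR vehicle 1 (0.74, adjusted p = 0.0576), without PAR vehicle 3 (0.61, adjusted p = 0.0571) or without TR vehicle 1 (0.58, adjusted p = 0.0688), all by edgeR.

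HSPA1A, HSPA1B and DNAJB1 did not pass the threshold between the lines. HSPA1A (ENSG00000204389, chromosome 6, 31815543 to 31817946, plus strand, 1 exon) ranged from 17.5 to 51.2 CPM in PAR vehicle and from 20.9 to 78.2 CPM in TR vehicle, with a log2 fold change of 0.77 (SE 0.53; edgeR adjusted p = 0.281). HSPA1B (ENSG00000204388, chromosome 6, 31827738 to 31830254, plus strand, 1 exon) ranged from 12.3 to 18.8 CPM and from 18.6 to 24.7 CPM, with 0.59 (SE 0.22; edgeR adjusted p = 0.0512). On its strand 36.6% of its exon length is shared with ENSG00000285565, and reads matching both genes were left out. HSPA1B passed under 6 of 16 other settings, with values from 0.33 to 0.86 over all of them. Counted as 1 gene, HSPA1A and HSPA1B gave 0.72 (SE 0.41; edgeR adjusted p = 0.186). DNAJB1 (ENSG00000132002, chromosome 19, 14514769 to 14560391, minus strand), the J-domain partner of inducible HSP70, was at 51.9 ± 13.7 and 64.6 ± 21.0 CPM (SD, n = 3), a difference of 0.31 (SE 0.29; edgeR adjusted p = 0.434).

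**Figure D2:**
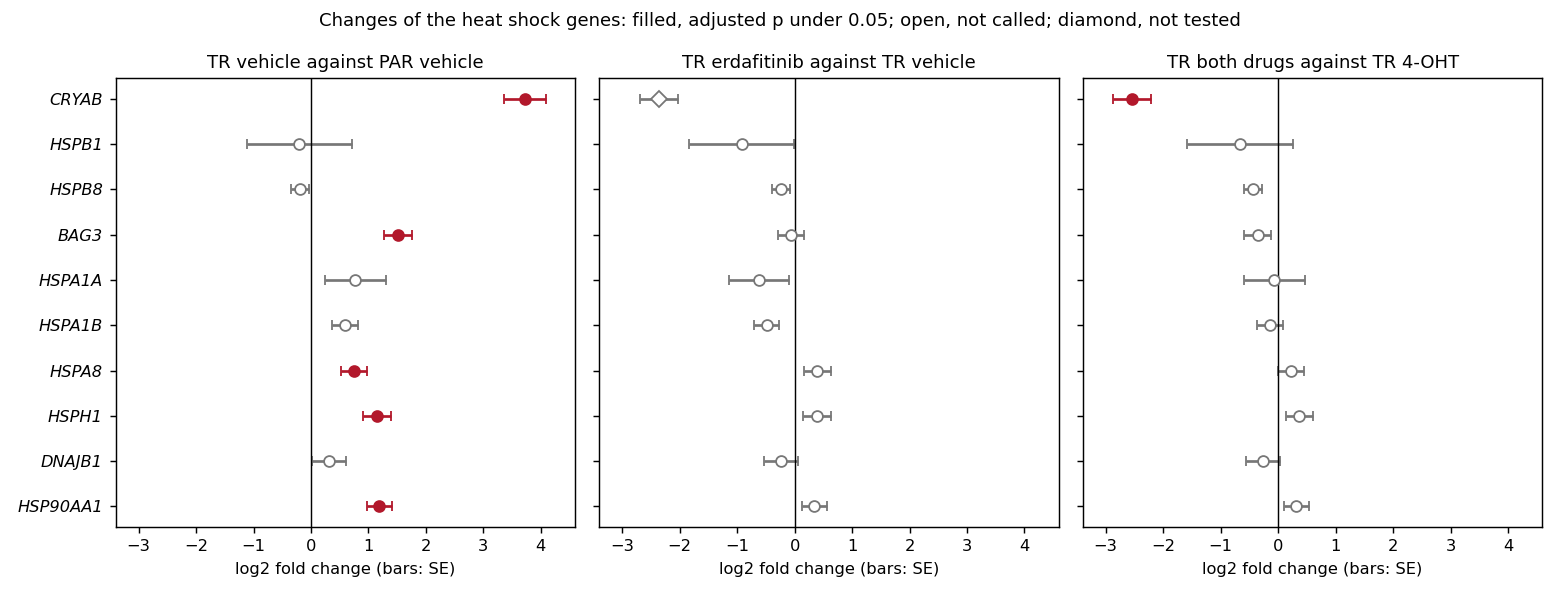
Log2 fold change of each heat shock gene with its SE (bars) for TR vehicle against PAR vehicle, TR erdafitinib against TR vehicle and TR combination against TR 4-OHT; filled points passed an adjusted p under 0.05, open points did not and the diamond was not tested. On the left 5 genes are filled and above 0, and on the right CRYAB is filled, at -2.54.

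On a scale per kilobase of exon, HSPA8 and HSP90AA1 stood far above the rest. The length used is that of all annotated exons of a gene, such as 4388 bases for CRYAB and 8188 for DNAJB1. It can exceed the length of the transcripts present, which would lower the value. For HSPA1A and HSPA1B it also holds stretches whose reads were left out. The order of the lower genes is therefore rough. HSPA8 had a mean of 308 CPM per kilobase in PAR vehicle and 516 in TR vehicle, and HSP90AA1 had 233 and 529. In TR vehicle the levels per kilobase were 24.1 for HSPA1A, 19.9 for HSPB8, 17.0 for BAG3, 16.9 for HSPB1, 8.95 for HSPH1, 8.77 for HSPA1B, 7.89 for DNAJB1 and 3.77 for CRYAB. On this scale CRYAB was the lowest of the 10 in TR vehicle, and it stood at 0.278 CPM per kilobase in PAR vehicle.

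4-OHT in the resistant cells was compared with vehicle to see whether the members followed the drug the cells were kept in. None of the 10 was called, among 0% of all genes. CRYAB is among the 10 as a description, since the TR vehicle libraries took part in its selection. At an unadjusted p under 0.05 there were 127 genes and no member, and DESeq2 called 0 genes. The members' log2 fold changes ran from -0.45 for HSPB1 (SE 0.91) to 0.17 for HSPA8 (SE 0.23), with 5 above 0 and 5 below.

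Erdafitinib alone was compared with vehicle in resistant cells. CRYAB is not counted here, since its fall in this comparison had selected it. None of the other 9 members was called, and 0.0925% of all genes were. They ran from -0.92 for HSPB1 (SE 0.92) to 0.40 for HSPA8 (SE 0.23), all with an adjusted p of 1 by edgeR. Among these 9, groups did not overlap for HSPB8 and HSPA1B, and over all genes they did not overlap in 11.6%. HSPA1B stood at 22.1 ± 3.17 CPM on vehicle and 15.8 ± 2.02 CPM on erdafitinib (SD, n = 3), a log2 fold change of -0.49 (SE 0.22).

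Erdafitinib on top of 4-OHT was compared with 4-OHT alone. CRYAB was the 1 member called, among 0.642% of all genes. The next smallest adjusted p among the members was 0.39, for HSPB8. Groups did not overlap for CRYAB, HSPB8 and BAG3, against 15.7% of all genes. BAG3 stood at 53.9, 48.3 and 45.3 CPM on 4-OHT and 31.0, 39.7 and 44.5 CPM on both drugs, a log2 fold change of -0.36 (SE 0.23; edgeR adjusted p = 0.749). The effects of erdafitinib with and without 4-OHT were set against each other as an interaction, in which no member was called, among 0% of all genes. At an unadjusted p under 0.05 there were 134 genes and no member, and DESeq2 called 1 gene. The combination against erdafitinib alone likewise gave no member, among 0% of all genes, with 104 genes and no member at an unadjusted p under 0.05 and 16 genes by DESeq2. In the counts of members for the interaction and for this contrast CRYAB is a description, since both use libraries that selected it.

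With both erdafitinib contrasts pooled, 6 libraries against 6, CRYAB stood at -2.45 on the log2 scale (SE 0.23), given with no test because that contrast holds the libraries that selected it. None of the other 9 members was called, and 1.71% of all genes were. The members split by sign. HSPB8 (-0.33, SE 0.11, adjusted p = 0.205), HSPA1A (-0.34, SE 0.37), HSPA1B (-0.31, SE 0.16), DNAJB1 (-0.25, SE 0.21), BAG3 (-0.21, SE 0.16) and HSPB1 (-0.79, SE 0.65) had values below 0. HSPH1 (0.38, SE 0.17, adjusted p = 0.397), HSP90AA1 (0.33, SE 0.15, adjusted p = 0.423) and HSPA8 (0.31, SE 0.16, adjusted p = 0.519) had values above 0. With the GC axis as a covariate, 3 of these 9 passed: HSPB8 at -0.33 (adjusted p = 0.0213), HSPA8 at 0.32 (adjusted p = 0.0116) and HSPH1 at 0.40 (adjusted p = 0.00308). Under that setting 1715 of the 16210 genes were called, in place of 278. The axis was estimated from the same libraries, so these edgeR p-values may be too small.

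The GC axis is given here for each member, and its part in the differences between groups was not tested. HSPA8, HSPH1 and HSP90AA1 have transcripts of 46.6%, 39.3% and 45.1% GC. In 4 of 5 groups the highest library of each was the lowest on the GC axis. For BAG3, of 58.3% GC, the highest library was the highest on the axis in 5 of 5 groups, for HSPA1A (59.3%) and DNAJB1 (55.2%) in 4 of 5, and for HSPA1B (58.7%) in 3 of 5. The lowest library of HSPA1A and DNAJB1 was the lowest on the axis in 4 of 5 groups, and that of HSPA1B in 2 of 5. CRYAB, of 52.0% GC, had its highest library at the top of the axis in 2 of 5 groups and its lowest at the bottom in 4 of 5, and its SD within groups, 0.40 on the log2 scale, was close to the median of 0.38. With a correction for GC content and length, made after the data had been seen, the log2 fold change of CRYAB was -2.55 on both drugs against 4-OHT, where it was still called, and 3.44 in TR vehicle against PAR vehicle.

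**Figure D3:**
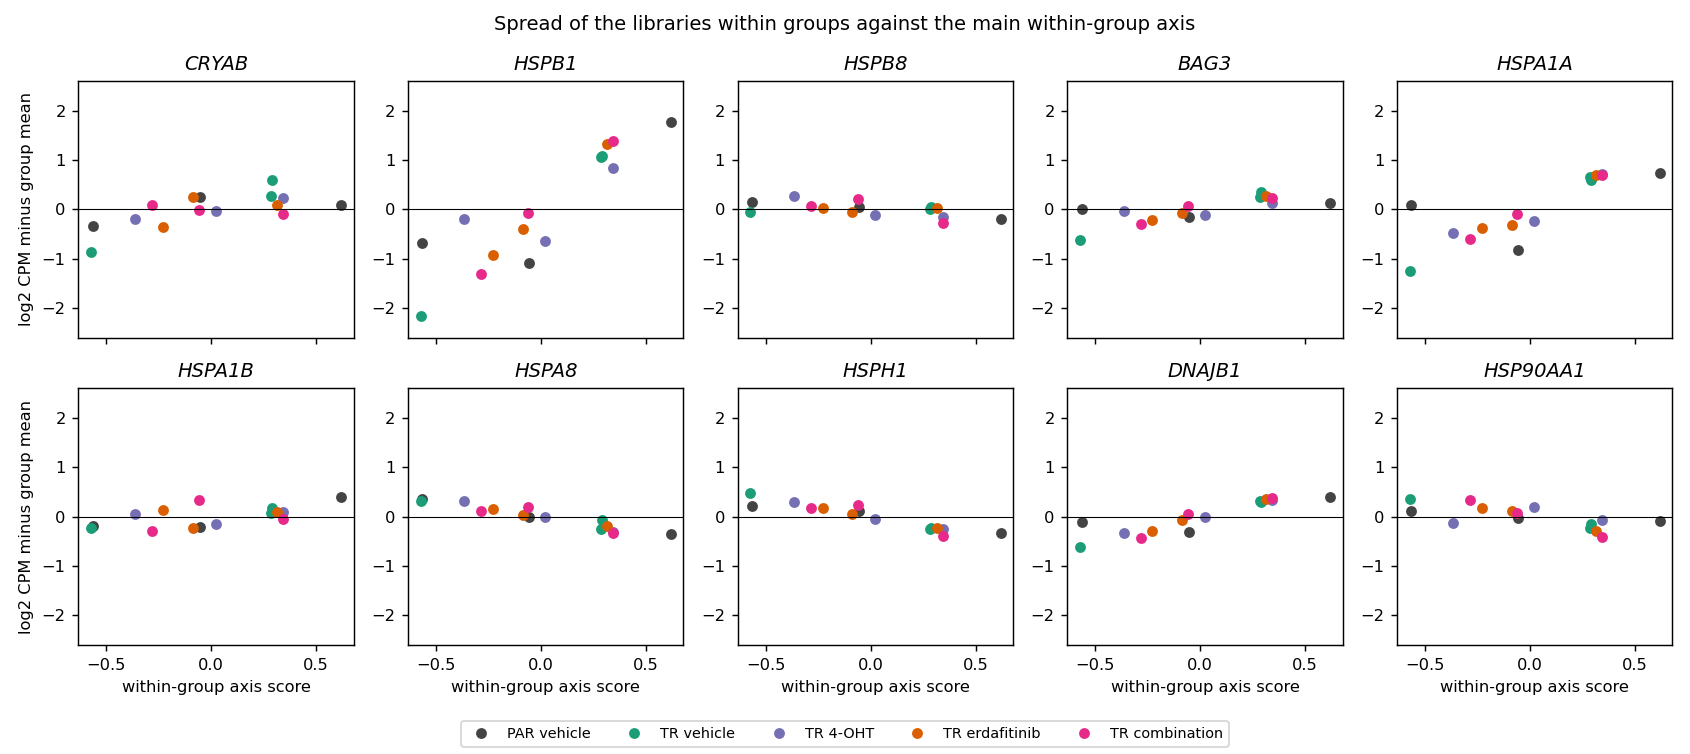
Deviation of each library from its group mean (log2 CPM) for the 10 genes against the library's score on the main axis of variation within groups, with 1 point per library, coloured by group. HSPB1, HSPA1A, BAG3 and DNAJB1 climb along the axis, HSPA8, HSPH1 and HSP90AA1 descend, and HSPB8 stays near 0.

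The neighbours and regulators of the members were read from the same counts. HSPB2, which lies head to head with CRYAB on chromosome 11 (111912734 to 111914093, plus strand), had 0 counts in all 15 libraries. On its strand 85.3% of its exon length is shared with the read-through gene HSPB2-C11orf52, and reads matching both genes were left out, so this 0 does not measure HSPB2. Its exons also overlap CRYAB on the opposite strand, which the stranded counting separates. HSF1, the main heat shock transcription factor, stood at 20.4 ± 9.43 CPM in PAR vehicle and 11.2 ± 7.23 CPM in TR vehicle (SD, n = 3), a log2 fold change of -0.86 (SE 0.56; edgeR adjusted p = 0.251). HSF2, a related factor, stood at 15.5 ± 5.92 and 16.4 ± 2.91 CPM, a difference of 0.09 (SE 0.26; edgeR adjusted p = 0.815). Neither was called in any of the 7 comparisons, and their RNA does not measure the activity of the proteins.

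The other chaperones, taken from lists drawn up by function, did not move one way between the lines. Their counts of calls stand beside the 35.9% of all genes called in TR vehicle against PAR vehicle. Of the other small heat shock genes 1 of 8 passed the filter, IFT25 (also named HSPB11), a cilium transport protein that has lost the chaperone role, which rose by 1.14 (SE 0.22; edgeR adjusted p = 0.00111). The filter left out HSPB2, HSPB3, CRYAA, HSPB7, HSPB9 and ODF1, each at 0 counts in all libraries, and HSPB6, with 20 counts in all. Of 10 tested genes of the HSP70 and HSP110 family other than the members, 2 rose and 4 fell. The falls with the smallest p were in chaperones of the endoplasmic reticulum and mitochondria: HSPA5 (BiP) fell by 3.08 (SE 0.16), from 6982 ± 169 to 823 ± 121 CPM, HYOU1 fell by 2.33 (SE 0.33) and the mitochondrial HSPA9 fell by 1.56 (SE 0.18). HSP90B1, the HSP90 of the endoplasmic reticulum, fell by 1.90 (SE 0.20), from 5150 ± 407 to 1379 ± 317 CPM (SD, n = 3).

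Among 20 J-domain co-chaperones 4 rose and 6 fell, among them DNAJB11 of the endoplasmic reticulum at -1.51 (SE 0.13), DNAJA4 at -1.55 (SE 0.18) and DNAJB5 at -1.69 (SE 0.23). Among 12 BAG proteins and other HSP70 partners 2 rose and 2 fell. BAG1, an exchange factor that pairs HSP70 with the proteasome, fell by 2.22 (SE 0.17), from 60.6 ± 11.5 to 13.005 ± 0.645 CPM (SD, n = 3), and BAG2 rose by 1.88 (SE 0.23), from 4.27 ± 0.281 to 15.8 ± 3.8 CPM. The mitochondrial exchange factor GRPEL2 fell by 0.75 (SE 0.17). BAG3 and BAG1 thus differed between the lines in opposite directions.

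Among 17 genes of the HSP90 machine 2 rose and 2 fell. The steroid receptor partner FKBP4 fell by 1.07 (SE 0.13) and FKBP5, which also binds HSP90 in steroid receptor complexes, rose by 1.01 (SE 0.19). Of 10 chaperonin genes CCT8 alone was called, at 0.40 (SE 0.15; edgeR adjusted p = 0.049). Of 7 heat shock factors and regulators 2 rose, HSBP1 by 1.22 (SE 0.31) and AKAP8L by 1.09 (SE 0.21), and SIRT1, a deacetylase that acts on HSF1, fell by 0.94 (SE 0.19). Of 22 further genes known to be induced by HSF1, 5 rose and 1 fell, with a median of 0.13 beside 0.07 over all genes. These included DNAJB4 at 1.83 (SE 0.44), CHORDC1 at 0.81 (SE 0.17) and FKBP4, the one that fell.

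Chaperone-assisted autophagy, the route that BAG3 and HSPB8 feed, had 4 of 11 genes higher and none lower in TR vehicle, a share near the 35.9% of all genes called. The median was 0.87, beside 0.07 over all genes. OPTN, an autophagy receptor, rose by 1.57 (SE 0.15), from 40.7 ± 9.41 to 122 ± 3.36 CPM (SD, n = 3), SYNPO by 1.597 (SE 0.31) and GABARAPL1, an autophagosome protein, by 1.07 (SE 0.21). In the pooled erdafitinib contrast, with 1.71% of all genes called, 1 of these 11, SYNPO, fell, by 1.16 (SE 0.21; edgeR adjusted p = 0.0107). No other gene of the chaperone lists was called in any comparison with erdafitinib. Genes of immediate early response, a sign of handling stress, gave 2 higher and 6 lower of 10 between the lines, beside 35.9% of all genes called. FOS fell from 84.3 ± 26.8 to 0.256 ± 0.111 CPM (SD, n = 3), FOSB fell by 6.42 (SE 0.40) and DUSP1 fell by 3.07 (SE 0.36). In the pooled erdafitinib contrast 1 of the 10 fell, IER2, by 0.55 (SE 0.13; edgeR adjusted p = 0.0428), with a median of -0.34 and 2 of 10 above 0. The part of these genes in the levels of the members was not tested.

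**Figure D4:**
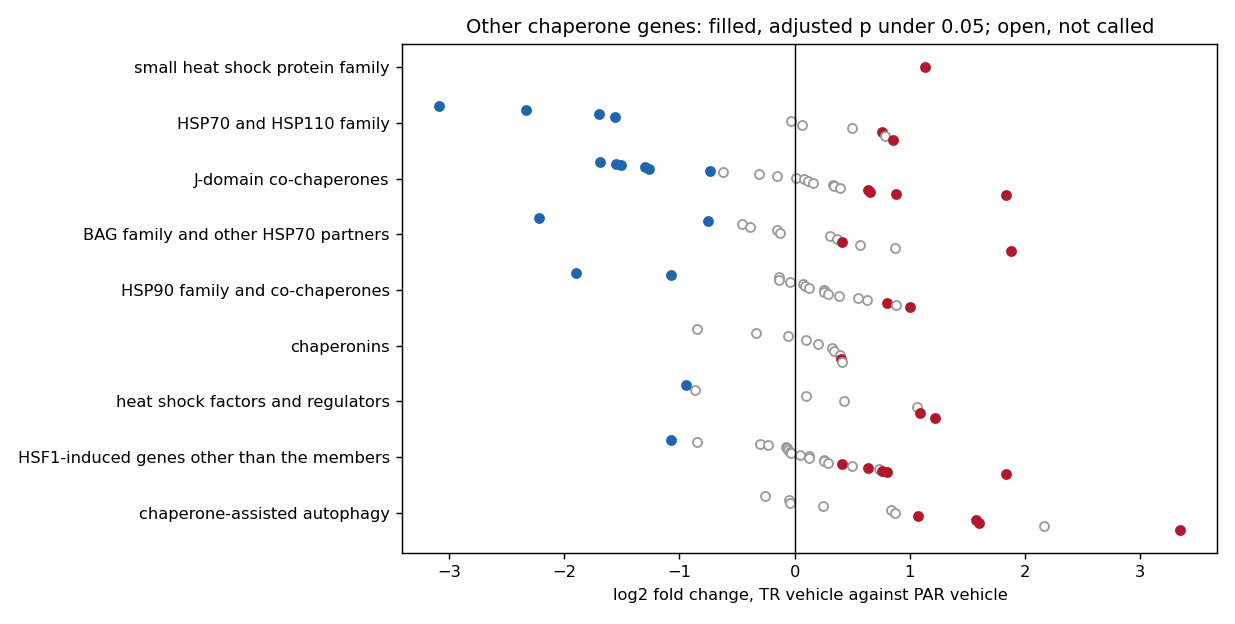
Log2 fold change of the other chaperone genes in TR vehicle against PAR vehicle, 1 point per tested gene and 1 line per list; filled points passed an adjusted p under 0.05. The HSP70 and J-domain lists hold filled points on both sides of 0, the chaperone-assisted autophagy list on the right side.

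Markers of basal and myoepithelial cells, where αB-crystallin is also found, differed between the lines and were lower on both drugs than on 4-OHT alone. The 10 markers summed to 54.0 to 83.5 CPM in PAR vehicle, with KRT5, KRT14, KRT17 and CNN1 at 0 counts. They summed to 501 to 1252 CPM in TR vehicle, with KRT14 at 0, and to 1074 to 1343 CPM in TR 4-OHT. KRT5, KRT17 and CNN1 had means of 0.193, 0.203 and 0.0983 CPM in TR vehicle, near the detection limit. Like KRT14, they were left out by the filter. The sums were 512 to 765 CPM in TR erdafitinib and 476 to 568 CPM in TR combination. Between TR vehicle and PAR vehicle 4 of 6 tested markers rose and 1, EGFR, fell by 1.42 (SE 0.20), beside 35.9% of all genes called. ACTA2, smooth muscle actin, stood at 1.93 ± 0.216 CPM in PAR vehicle and 819 ± 392 CPM in TR vehicle (SD, n = 3), and made up most of the sum. On erdafitinib alone against vehicle none of the 6 was called and the sums overlapped, with a median of -0.48. On both drugs against 4-OHT alone 2 of 6 fell, with 0.642% of all genes called, as MYLK fell by 0.84 (SE 0.15) and TRIM29 fell by 1.55 (SE 0.32). In the pooled contrast 3 of 6 fell, with 1.71% of all genes called, and ACTA2 fell by 0.93 (SE 0.21). The part of these cells or of this programme in the level of CRYAB was not tested.

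Markers of other cells were partly detected. The 5 lens markers summed to 0.351 to 3.78 CPM over the 15 libraries, with CRYAA and CRYGD at 0 in every group. BFSP1, a lens filament gene, stood at 3.73 ± 0.0641 CPM in PAR vehicle and 1.79 ± 0.413 CPM in TR vehicle (SD, n = 3), and was not called. The 6 muscle markers summed to 7.22 to 26.2 CPM, with MYH7, MYH2 and DES at 0 in every group. Nearly all of that was MB, the myoglobin gene, with group means from 11.8 to 16.4 CPM and no call between the lines. The 4 endothelial markers summed to at most 0.155 CPM in any library. The 6 leukocyte markers summed to at most 2.56 CPM, with CD3E at 0 in every group, and 1 of them, ITGAM, rose from 0 counts to 0.84 ± 0.281 CPM (SD, n = 3) in TR vehicle. Of the 7 fibroblast markers COL3A1, a collagen gene, was at 0 counts in PAR vehicle and 1.88 ± 0.665 CPM in TR vehicle, and on both drugs it fell by 2.28 (SE 0.42; edgeR adjusted p = 0.0284) against 4-OHT. Over all 15 libraries COL1A2 had 0 counts, PDGFRB 1, PDGFRA 2, DCN 6 and LUM 36, and the filter left these genes out. The fibroblast sums were 11.9 to 28.2 CPM in PAR vehicle and 13.3 to 37.7 CPM in TR vehicle, most of it from COL1A1, which was not called. These sums are of the order of CRYAB itself in TR vehicle, and the part of such cells in the level of CRYAB was not tested.

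The genes whose levels ran closest to those of each member over the 15 libraries were found among 10590 genes, by Pearson r of log2 CPM. The libraries share their groups and the GC axis, so these values describe likeness and carry no test. For CRYAB they were MYADM, a membrane protein gene (r = 0.974), SYNPO (0.967), DNAH10OS (0.960), PADI2, an arginine deiminase (0.954), and EXT1, a heparan sulphate polymerase (0.953). MYADM stood at 71.5 ± 4.87 CPM in PAR vehicle, 125 ± 14.7 in TR vehicle, 126 ± 5.54 in TR 4-OHT, 88.6 ± 9.86 in TR erdafitinib and 86.1 ± 4.07 in TR combination (SD, n = 3), the same order of tiers as CRYAB over a smaller range. Over the 12 resistant libraries the nearest were MYADM (0.966), PAMR1 (0.962), RCAN1 (0.961), FGFR2 (0.961) and SYNPO (0.960), so 2 of 5 were shared. FGFR2, which encodes one of the receptors that erdafitinib inhibits, stood at 93.3 ± 15.2 CPM in TR vehicle, 103 ± 10.1 in TR 4-OHT, 61.8 ± 5.88 in TR erdafitinib and 56.2 ± 3.0 in TR combination.

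Among the other members HSPA8 and HSPH1 were each other's nearest gene (r = 0.982). HSP90AA1 ran closest to SERBP1, an RNA-binding protein (0.985), BAG3 to the tubulin gene TUBA4A (0.994), and HSPB1 to the nucleoside transporter gene SLC29A1 (0.989). The nearest gene was BLVRB for HSPA1A (0.977), ACSF2 for DNAJB1 (0.971), CHP1 for HSPB8 (0.908) and COTL1 for HSPA1B (0.840). TUBA4A stood at 2.88 ± 1.04 CPM in PAR vehicle and 57.6 ± 35.8 CPM in TR vehicle (SD, n = 3), so its range between the lines was wider than that of BAG3.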

How the data were processed

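RNA of the 15 libraries was made into paired-end libraries with a stranded kit, per the labels' protocols. The authors deposited raw counts of reads per gene (unit: counts, not normalized). Per the file headers, featureCounts 2.0.1 counted read pairs in the reverse-stranded mode on Ensembl 104 genes, and its default leaves out reads that match several places or genes. Alignment with HISAT2 2.1.0 to GRCh38 and the counter version 1.4.6-p1 are given in the submitters' processing notes, so the counter's version differs between the sources.

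From these counts, genes were kept by filterByExpr (16210 of 60664) and scaled by TMM in edgeR 4.0.16 (R 4.3.3). The edgeR quasi-likelihood model held a mean for each of the 5 groups over all 15 libraries, without a block (10 residual degrees of freedom). P-values were adjusted over all genes tested by the Benjamini-Hochberg method, and an adjusted p under 0.05 was a call. The SE is the absolute log2 fold change divided by the square root of F. CPM uses TMM-scaled totals. The biological coefficient of variation over all genes was 30.8%. Depth floors cover counting error only. Exon models, their lengths and overlaps were those counted (Ensembl 104). GC content and the aligned transcripts of HSPA1A and HSPA1B came from the GENCODE 29 release, whose models may not match those counted.

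The named genes were the 10 members, HSPB2, HSF1, HSF2, up to 3 called genes with non-overlapping groups and the smallest p of each list and comparison, the 5 genes with the highest r with CRYAB and 1 for each other member, with a mean log2 CPM of at least 2 (prior count 2). HSPB1 and other uncalled genes are named as members or markers. The members, the lists, the markers and the tests were chosen with earlier results of these data known. Alternatives were median-ratio size factors, DESeq2 1.42.0, other filters, the compared groups alone, a replicate block, the GC axis as a covariate, HSPA1A and HSPA1B summed, and leaving out libraries. A GC and length correction and TR 4-OHT in place of TR vehicle were added after seeing the data. The code was tested on simulated counts with 200 changed genes. Same-numbered libraries did not deviate together, so the replicate numbers were not taken as pairs.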

Additional observations from a re-analysis of the deposited data

How the results depend on the processing

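Over 26 alternative settings, 1243 values of single genes were recomputed. Of these, 1224 kept their side of the threshold, 10 lost it, 9 gained it, and no called value changed sign. These counts take in CRYAB in the contrasts that selected it, where its values are a description. CRYAB passed under all 16 alternatives for the combination against 4-OHT, with log2 fold changes from -2.63 to -2.41, and ranged from 3.44 to 4.05 for TR vehicle against PAR vehicle. For the latter comparison BAG3 (1.10 to 1.77), HSPH1 (0.86 to 1.30) and HSP90AA1 (0.99 to 1.31) passed under all 17 alternatives. HSPA8 passed under 13 of 17 (0.55 to 0.95). HSPB1, never called, ranged from -0.65 to 1.32 between the lines and changed sign in 3 settings, and DNAJB1 from -0.16 to 0.58 with 1 change of sign.

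For erdafitinib alone against vehicle, the count of members past the threshold held no member but CRYAB, which that contrast had selected, so it is listed as a description and no stability is read from it. It was 1 with all libraries, 0 in a fit of those 2 groups and 0 to 1 when 1 library was left out (0 without TR vehicle 2, TR vehicle 3 or any 1 of the 3 erdafitinib libraries, with CRYAB from -2.50 to -2.06). These fits hold fewer samples. The fit of those 2 groups called 0 of all genes, and the listed fits without 1 library called 2 to 4. For the pooled erdafitinib contrast the GC axis as a covariate gave 4 members in place of 1, and 1715 genes in place of 278. CRYAB is in both counts, again as a description. The cause was not tested.

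With the replicate number as a block (replicate block) 5 members were called between the lines, as without it. For the combination against 4-OHT 1 member was called, CRYAB, also as without it. CRYAB alone was past the threshold for erdafitinib alone and in the pooled contrast. Both hold the value that selected it, so this is a description and no stability is read from it. No member was called in the other contrasts. All genes called numbered 5549 between the lines, 9 for erdafitinib alone, 76 for the combination against 4-OHT and 186 in the pooled contrast. The numbers did not pair the samples: of 30 pairs with the same number 13 correlated above 0.1, from -0.83 to 0.77, and 6 of 15 libraries correlated best with their own number. Depth limits CRYAB in parental cells, with 58 counts in 3 libraries.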
